A study of Mus musculus with 4 samples.

Results

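The genes described here are 37 genes of DNA replication, chosen by their symbols among the 32589 features of the deposited tables, and all 37 were found there and had counts. They were measured by spatial transcriptomics in formalin-fixed, paraffin-embedded sections of mouse brain after inoculation and resection of a tumour. The study set animals that received a drug-free hydrogel, labelled TREAT, against animals that did not, labelled Vehicle, to follow the response to regrowth of the tumour. All samples were taken at day 11 in the inoculated and resected model, and the mouse strain, the tumour line and the composition of the hydrogel are not given in the sources used here. Each group had 2 capture areas, Vehicle 1+4 and Vehicle 2+3 against TREAT 1+4 and TREAT 2+3, and each area carried 2 large pieces of tissue. The series states 4 animals in all, and nothing in the labels ties an area or a piece to an animal, so p-values below measure the spread between capture areas only.

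DNA replication starts at origins that are licensed when the origin recognition complex, Cdc6 and Cdt1 load the MCM ring onto DNA. Cdc45, GINS and Mcm10 turn that ring into the moving helicase, polymerases alpha, delta and epsilon copy the strands, and the PCNA clamp, its RFC loader, Fen1 and Lig1 finish them. The same cells make deoxynucleotides and new histones, and most of these genes are expressed as cells pass from G1 into S phase, largely under E2F transcription factors. Mature neurons do not divide, and in the adult brain replication is limited mainly to a few progenitor and glial cells, while tumours cycle.

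Because E2F factors are the textbook link between these genes, the stretch of 250 bases before the start site of each gene was searched for 4 forms of the E2F site, TTTCCCGC, TTTGGCGC, TTTCGCGC and TTTGCCGC, on both strands with overlaps counted. RefSeq's promoter table (GRCm38.p6, the assembly of mm10) held 32 of the 37 genes, and Gins1, Gins2, Mcm4, Pole and Tipin were not in it. The letters were present in 8 of these 32 genes (25.0%), namely Mcm5, Mcm6, Mcm7, Orc1, Cdc6, Pola1, Rfc3 and Uhrf1, against 583 of all 27025 genes in the table (2.16%). They were present in 7 of 18 G1/S control genes (38.9%) and in 1 of 22 mitosis genes (4.55%). The CCAAT box was present in 19 of 32 replication genes (59.4%), in 19 of 22 mitosis genes (86.4%) and in 37.5% of all genes. A match is a description of letters and not of binding, and forms with other letters were not searched. The stretches below show 1 gene for each role that had a match. They are written 5′ to 3′ on the gene's own strand, and capitals mark the matched letters. Mcm5 lies on the plus strand at chr8:75109316-75109407 and has 2 overlapping matches, 1 on each strand. Rfc3 lies on the minus strand at chr5:151651209-151651258. Uhrf1 lies on the plus strand at chr17:56304088-56304175, before 1 of its 2 start sites in the table, Cdc6 on the plus strand at chr11:98907973-98908060, and Pola1 on the minus strand at chrX:93632246-93632333.
Mcm5: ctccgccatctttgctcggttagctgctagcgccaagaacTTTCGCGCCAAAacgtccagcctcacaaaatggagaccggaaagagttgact
Rfc3: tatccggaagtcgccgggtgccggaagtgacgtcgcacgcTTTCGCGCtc
Uhrf1: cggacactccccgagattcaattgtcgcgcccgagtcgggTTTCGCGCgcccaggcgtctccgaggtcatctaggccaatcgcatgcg
Cdc6: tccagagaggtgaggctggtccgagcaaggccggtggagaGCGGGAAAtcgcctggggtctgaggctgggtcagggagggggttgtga
Pola1: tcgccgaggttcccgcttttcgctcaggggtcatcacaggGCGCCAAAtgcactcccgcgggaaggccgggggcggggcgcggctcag

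A UMI is 1 captured molecule tag, and a spot is a small region of tissue that can hold several cells. The areas had 3193, 3488, 3352 and 3013 spots over tissue, in the order Vehicle 1+4, Vehicle 2+3, TREAT 1+4 and TREAT 2+3, which is kept below. Between 34202695 and 56150597 UMIs fell on tissue, and the median spot was deeper in TREAT (14986.5 and 12248 UMIs) than in Vehicle (7310 and 8377). Tumour spots were found by clustering spots without the replication, G1/S, mitosis and histone genes, and by keeping clusters with at least 3 markers of mesenchymal glioma and lesion, or of lesion interferon response, among their 50 leading genes, in patches of at least 20 spots. This gave 946, 1314, 193 and 554 tumour spots, in which 20 of the 24 tumour and lesion markers were at least 1 log2 unit above the brain in every area. They came from 1 cluster made almost only of Vehicle spots (944 and 1311, against 0 and 0) and 1 made almost only of TREAT spots (2 and 4, against 195 and 554), so the treatment comparison inside the tumour is largely a comparison of those clusters. The Vehicle cluster was taken by 4 tumour and lesion markers and also had 3 interferon markers, while the TREAT cluster was taken by 3 interferon markers and had 2 tumour and lesion markers, below the minimum. The left piece of TREAT 1+4 had 0 tumour spots. Tumour spots within 2 spot steps of tissue outside the tumour are called the margin, the others the interior, tissue outside within 2 steps the ring, and the rest the brain. Levels are UMIs of a gene scaled to a common total of UMIs in a region (counts per 1e6, CPM), and since probe pairs differ in efficiency, levels are not compared between genes.

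The replication genes were far higher in the tumour than in the brain, and the level dropped within a few spots of the edge. Their summed level was 4775, 4805, 4797 and 4466 CPM in tumour spots and 408, 611, 513 and 433 CPM in the brain. No brain value came near a tumour value in any area. Over the 37 genes, the median log2 difference of tumour over brain was 3.51, and the area medians were 3.44, 3.09, 3.36 and 3.78. A log2 difference of at least 1 in all 4 areas was reached by 36 of 37 genes, where 13.3% of 20326 features reached it and the median feature differed by 0.12. These regions were defined from expression in the same spots, so the differences are descriptions without a test. Fewer cells with a gene's RNA and less RNA per cell cannot be told apart in such sums.

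**Figure D1:**
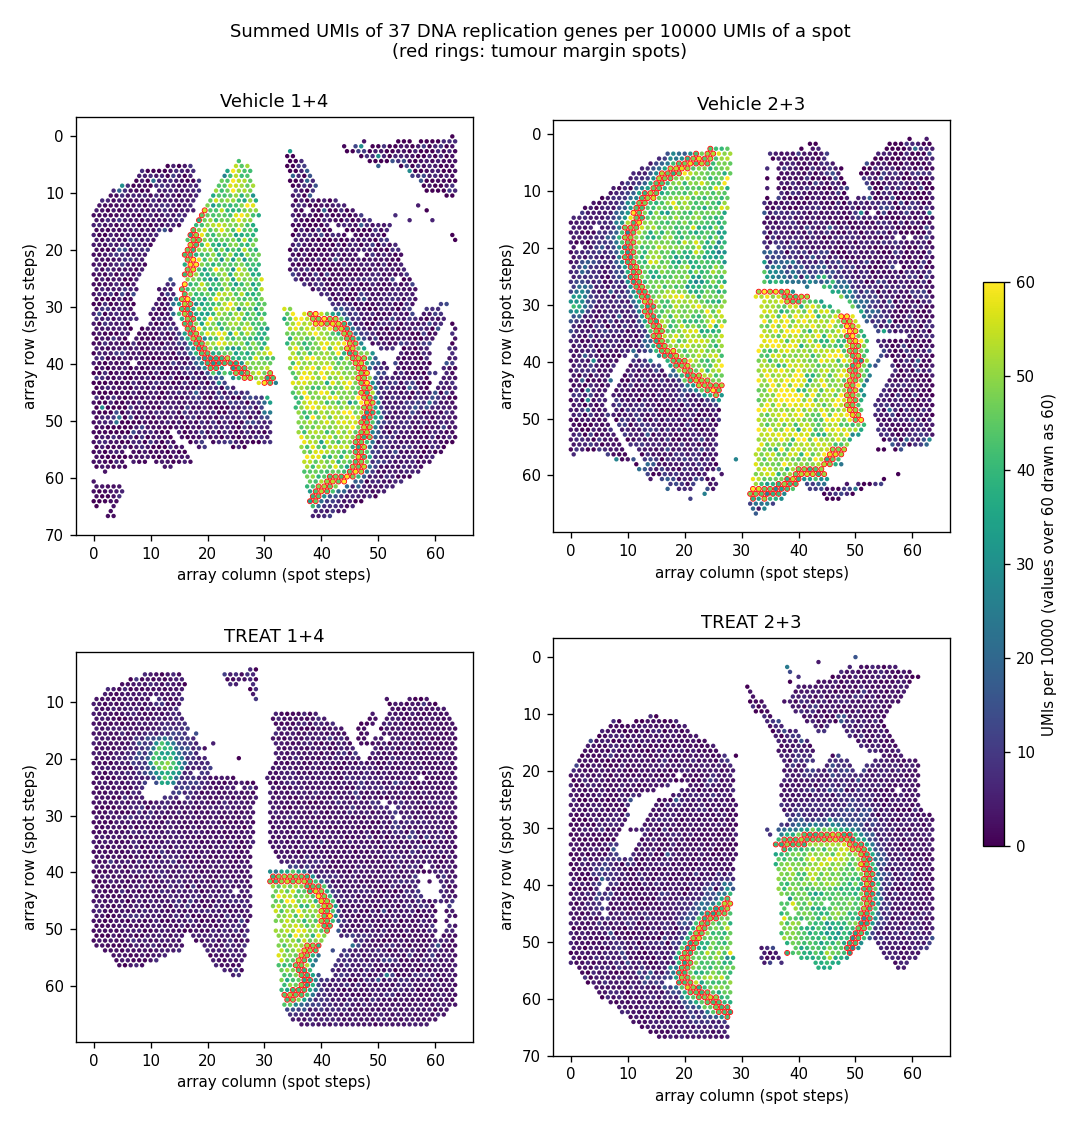
Each point is a spot over tissue, placed by array column and row in spot steps, and its colour is the summed UMIs of the 37 genes per 10000 UMIs of the spot. Red rings mark margin spots. The bright patches are the tumour, with a median of 47.6, 48.3, 48.3 and 44.6 per 10000, and a smaller patch appears in the left piece of TREAT 1+4, away from any tumour spot.

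Uhrf1, which carries DNA methylation through replication, had the greatest contrast. It stood at 177, 159, 146 and 160 CPM in the tumour and at 4.51, 11.5, 7.36 and 5.30 CPM in the brain, a log2 difference of 4.47 ± 0.62 (SD, n = 4 areas). Pclaf, a PCNA-binding factor of replicating cells, followed at 4.36 ± 0.86. Mcm3, a subunit of the helicase ring, stood at 376, 433, 447 and 357 CPM in the tumour against 11.8, 39.0, 24.0 and 14.3 CPM in the brain, a difference of 4.29 ± 0.64. For these 3 genes every tumour value was above every brain value.

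The licensing factors Cdt1 (4.04) and Cdc6 (4.00), the ribonucleotide reductase subunit Rrm2 (3.92), Mcm10 (3.88) and Mcm2 (3.88) had log2 differences above the median of the group. Orc1, the largest subunit of the origin recognition complex, differed by 3.86, while Orc6 of the same complex differed by only 1.73, from 73.2, 85.4, 131 and 107 CPM in the tumour to 26.4, 26.4, 30.4 and 32.9 CPM in the brain. Orc6 thus kept the highest share of its tumour level in the brain after Pcna. The next smallest contrasts belonged to the clamp loader subunit Rfc5 (2.07), the flap nuclease Fen1 (2.30), the fork protection factor Tipin (2.39) and the dUTPase Dut (2.50).

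Pcna, the sliding clamp itself, was the exception. It gave 351 UMIs over all kept spots of the 4 areas, with 1.24, 1.82, 3.80 and 2.88 CPM in the tumour and 1.37, 1.54, 1.96 and 1.46 CPM in the brain. Its tumour and brain values overlapped. Off tissue, more than 5 steps from the tumour, it had 2.30, 3.76, 2.48 and 2.11 CPM, above its tumour values in both Vehicle areas and below them in both TREAT areas. Its tumour level thus stayed near that background, and the small contrast says nothing of Pcna itself. Mcm7, another subunit of the helicase ring, stood at 19.1 to 24.5 CPM in the tumour and at 1.80 to 2.60 CPM in the brain, without overlap.

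**Figure D2:**
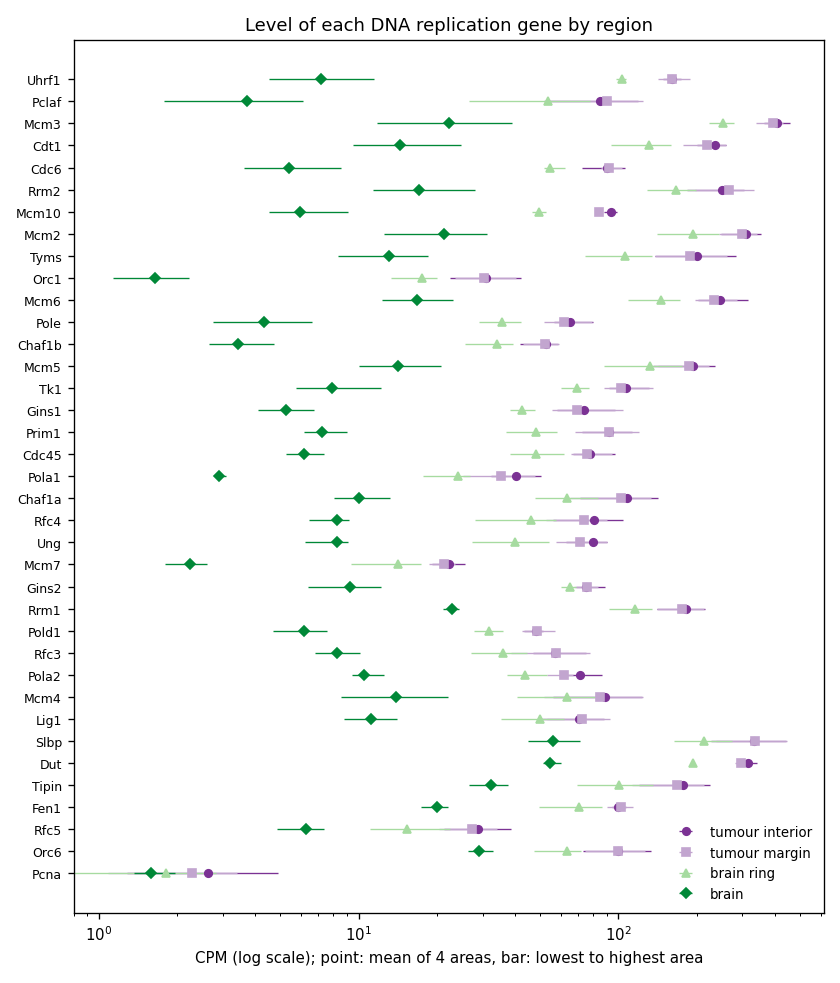
Level of each of the 37 genes in CPM on a log axis, sorted by the difference of tumour over brain. Points are means of 4 areas and bars run from the lowest to the highest area. Interior and margin lie close together and the mean of the ring lies between them and the brain. The brain bar lies below the bars of the other regions for every gene but Pcna, while ring and tumour bars overlap for several, such as Mcm4, Slbp, Lig1 and Pclaf.

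Other genes of the cell cycle gave a background for these contrasts. Of 24 mitosis genes, 24 reached a log2 difference of 1 in all 4 areas, with a median of 3.99. Of 44 further replication genes that were not among the 37, 33 did so, with a median of 2.19. Of 26 G1/S control genes, 18 did so, with a median of 2.15. The spread within replication genes was thus wide, from Pcna at 0.42 to Uhrf1 at 4.47.

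Margin and interior were nearly alike. The summed level was 4780, 4834, 4886 and 4494 CPM in the interior and 4751, 4675, 4633 and 4383 CPM in the margin, lower in the margin by a small step in 4 of 4 areas. The median log2 difference of margin over interior was -0.05. Of the 37 genes, 12 were lower in the margin in all 4 areas, where 9.15% of features were, and 2 were higher, where 11.6% were. The polymerase alpha subunits were the lowest of these, Pola1 at a mean log2 difference of -0.21 and Pola2 at -0.20. Pola1 stood at 32.4, 35.0, 43.3 and 50.4 CPM in the interior and 25.1, 31.3, 37.1 and 47.5 CPM in the margin. The uracil glycosylase Ung (-0.16), Mcm10 (-0.15) and the clamp loader subunit Rfc4 (-0.13) came next. The 2 genes that were higher in the margin in every area were Rrm2 and Pclaf, each at 0.09. Over the same spots the median oligodendrocyte marker was higher in the margin by 1.10 and the median astrocyte marker by 1.07. The part of these markers in the margin values was not tested.

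Outside the edge the level declined over about 3 spots. The first step outside had 3567, 3748, 3630 and 3688 CPM, the second 1261, 2014, 1237 and 1540 CPM, the third 676, 1046, 593 and 881 CPM, and the fourth 424, 807, 416 and 615 CPM. Inside the tumour the profile was flat, between 4281 and 5116 CPM from the first to the eighth step. The ring was above the brain in all 4 areas for 36 of 37 genes, where 34% of features were. The median log2 difference of ring over brain was 2.78. Pcna was again the exception, with 0 UMIs in the ring of Vehicle 1+4.

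**Figure D3:**
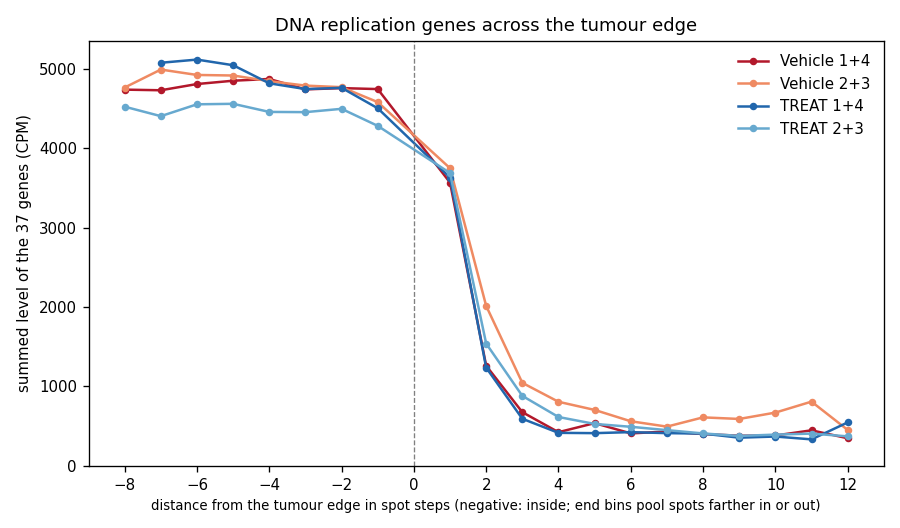
Summed level of the 37 genes in CPM against distance from the tumour edge in spot steps, 1 line for each area, with spots inside at negative steps and the end points pooling all spots beyond. All 4 lines run between 4281 and 5116 CPM inside and drop to 593 to 1046 CPM by the third step outside.

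Spots off tissue also carried these genes. Within 2 steps of the tumour, spots with no tissue had 4086, 4020, 3677 and 3788 CPM of the 37 genes, a composition close to that of the tumour. They carried a mean of 12.9, 13.1, 15.9 and 18.5 UMIs of the 37 genes for each spot. Ring spots on tissue carried 26.0, 44.2, 61.1 and 61.1, and margin spots 102, 116, 159 and 158. More than 5 steps away, off-tissue spots still had 604, 877, 502 and 613 CPM, above the brain on tissue in 3 of 4 areas. The mean brain level was above the mean level of these far off-tissue spots for Orc6, Rfc5 and Fen1 and at or below it for each of the other members. Signal in the ring and in the brain is therefore not separated here from RNA or probes carried over from tumour spots, and the part of such carry-over was not tested.

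Within the brain, spots of a cluster led by reactive glia markers were rich in replication genes, at 819, 1410, 1912 and 1079 CPM. Among the 50 leading genes of that cluster were 3 reactive glia markers, the minimum for a name, and 2 of tumour and lesion. In Vehicle 2+3 the cluster named for ependyma and choroid plexus markers was higher still, at 1540.5 CPM over 145 spots. In Vehicle 1+4 it had 673 CPM over 40 spots. Its leading genes held 4 markers of that list, 2 of tumour and lesion and 1 of B and plasma cells. With a finer clustering (Leiden resolution 1.0) the cluster of that name held 0 spots of Vehicle 2+3, so the name is not firm there. In the reactive glia spots 36 genes had at least 20 UMIs, summed over areas. Of these, 14 were at least 2-fold above the rest of the brain in all 4 areas, where 7.75% of features were. These were the helicase genes Mcm3, Mcm4 and Mcm5, Mcm10, the licensing factors Cdc6 and Cdt1, the polymerase epsilon gene Pole, the ligase Lig1, Rrm1, Rrm2, Tyms, Tk1, Chaf1b and Uhrf1. Vehicle 1+4 had only 30 such spots, so its values rest on few UMIs, as for Cdc6, Pole and Uhrf1, each at 13.3 CPM. Mcm3 stood at 66.6, 129, 156 and 72.3 CPM in the reactive glia spots against 11.1, 29.0, 11.5 and 12.5 CPM in the rest of the brain.

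The largest connected patch of this kind in TREAT 1+4 lay in its left piece, 21.0 steps from the nearest tumour spot, and held 169 spots. Its level was 2168.5 CPM, against 383 CPM in the rest of that area's brain. Its highest spot had 50.3 UMIs of the 37 genes per 10000, above the median tumour spot of every area, while its own median spot had 9.23. Mcm3 stood at 177 CPM there, Mcm6 at 103 CPM and Mcm4 at 42.3 CPM. Of 36 genes with at least 20 UMIs in the patch, 35 were at least 2-fold above the rest of the brain. The tumour and lesion markers summed to 7981 CPM in the patch and to 723 CPM in the rest of the brain. Because its cluster was led by glial markers, the patch counts as brain in the values for TREAT 1+4, except where reactive glia spots are said to be counted as tumour. Patches were drawn over ring and brain spots together. Of 6 further patches of at least 20 such spots, 5 began 1 step from the tumour, with 1890.4 to 2900.4 CPM. Their levels thus include ring spots. The remaining patch, of 70 spots in Vehicle 2+3, came within 2.6 steps of the tumour. It had 552 CPM, with tumour and lesion markers at 4126 CPM.

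In hippocampal spots 19 genes had at least 20 UMIs, summed over areas. Of these, only Mcm6 was at least 2-fold above the rest of the brain in all 4 areas, where 1.98% of features were. It stood at 45.2, 54.4, 54.5 and 55.4 CPM there and at 10.3, 22.3, 17.7 and 12.9 CPM in the rest of the brain. All 4 hippocampal values were above all 4 others. In the other brain clusters with 20 spots in 3 or more areas, 0 of the 37 genes did so.

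In the tumour, part of the replication genes was lower in TREAT than in Vehicle. Counts by role follow below, each over only 2 to 6 genes, and stand beside the share of all genes given here. Counts were summed over tumour spots of an area and compared by edgeR's quasi-likelihood test with TMM scaling, which brings the bulk of genes to a common level. Levels in this comparison are CPM after that scaling (scaled CPM), changes are log2 of TREAT over Vehicle ± SE, and adjusted p is the Benjamini-Hochberg value over all 19539 genes tested, with a threshold of 0.05. Of the 37 genes, 15 fell and 1 rose. Over all genes tested, 20.2% fell and 12.1% rose. The median change was -0.34 over the 37 genes and 0.04 over all genes.

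The scaling bears on every one of these counts. TMM factors were 0.82 and 0.88 in Vehicle and 1.16 and 1.19 in TREAT. With library totals in place of TMM the median of all genes moved to 0.50 and that of the 37 genes to 0.14, with 8 lower and 11 higher. Genes in general were thus shifted upwards there, more than the 37 genes, so a higher call with library totals is not read as particular to a gene. When only genes with a mean of at least 10 CPM were used, 8 were lower and 4 higher. The median was then 0.02 over the 37 genes and 0.01 over all. The shares of all genes called with library totals or with this filter are not given here, so these counts have no background. The 8 genes called lower were the same with either setting, and they were called lower under every alternative tried: Mcm4, Mcm5, Rfc3, Rfc5, Rrm2, Tyms, Chaf1a and Slbp. All 15 genes stayed below 0 under every alternative.

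Leaving out an area leaves 1 library in its group, which is then assumed to vary like the 2 of the other, so a lost call there is no sign of a smaller change. Without Vehicle 1+4 the count was 9, with 0 higher, and the calls of Mcm10 (adjusted p = 0.209), Cdc6 (0.059), Tk1 (0.118), Dut (0.297), Chaf1b (0.209) and Uhrf1 (0.217) were lost in edgeR's quasi-likelihood test, at changes from -0.42 (Dut) to -0.72 (Cdc6). Without Vehicle 2+3 those of Mcm10 (0.0505), Cdc6 (0.133) and Dut (0.0959) were lost. Without TREAT 1+4 Chaf1b was lost (0.177), and without TREAT 2+3 Cdc6 (0.096) and Dut (0.114) were. For 22 of the 37 genes both TREAT values lay below both Vehicle values, where 36% of all genes tested did. For 3 genes both lay above, a direction in which the share of all genes was not counted.

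**Figure D4:**
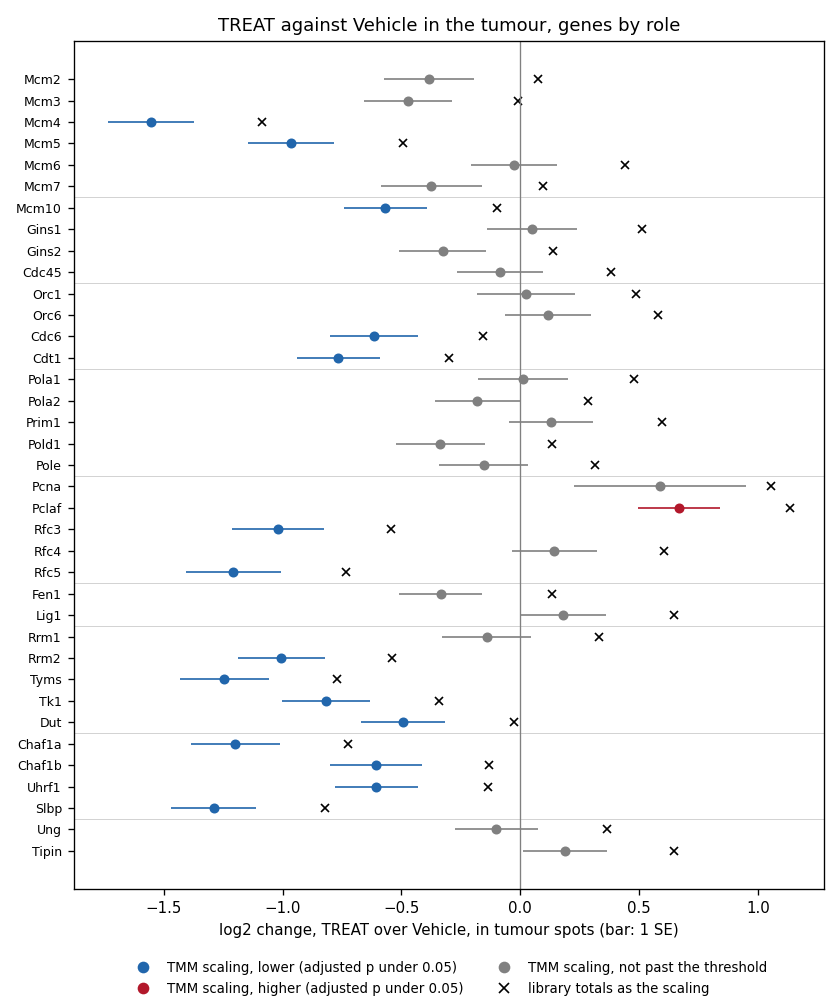
Log2 change of TREAT over Vehicle in tumour spots for each of the 37 genes, in order of role. Points are the TMM-scaled fit with bars of 1 SE, blue where lower and red where higher at adjusted p under 0.05, and crosses are the same change with library totals. Mcm4 lies farthest to the left at -1.56, Pclaf is the red point at 0.67, and all crosses lie to the right of their points.

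In the MCM ring, 2 of 6 genes fell and 4 did not pass. Mcm4 (chr16:15623897-15637400) stood at 150.3 and 131 scaled CPM in Vehicle and 49.6 and 46.2 in TREAT. The TREAT values were well below both Vehicle values, a change of -1.56 ± 0.18 (adjusted p = 1.19e-05, edgeR's quasi-likelihood test). Mcm5 stood at 263 and 265 against 119 and 151, a change of -0.96 ± 0.18 (adjusted p = 0.000597). Mcm6 (chr1:128331575-128359705) stood at 253 and 230.0 against 263 and 212, and its groups overlapped (-0.03 ± 0.18, adjusted p = 0.917). Its sign turned with library totals, to 0.44 (adjusted p = 0.0429, edgeR's quasi-likelihood test). Mcm3, at 456 and 493 against 385 and 300.0, missed the threshold (-0.47 ± 0.19, adjusted p = 0.0555). Mcm2 stood at 300.1 and 401 against 292 and 246 (-0.38), and Mcm7 changed by -0.37.

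A ratio within an area needs no scaling between areas. There were 0.594 and 0.569 Mcm4 UMIs for each Mcm6 UMI in the Vehicle tumours and 0.189 and 0.218 in the TREAT tumours. For Mcm5 the ratio to Mcm6 was 1.04 and 1.15 in Vehicle and 0.452 and 0.715 in TREAT. Both ratios were lower in both TREAT areas, as was that of Mcm4 to Mcm2, at 0.501 and 0.326 against 0.170 and 0.188. A ratio does not tell a lower first gene from a higher second gene. By tissue piece, Mcm4 stood at 122, 126, 110.3 and 123 CPM in the 4 Vehicle pieces and at 57.6, 47.8 and 57.5 CPM in the 3 TREAT pieces with tumour spots. Pieces of 1 area share a library and are not replicates.

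Of the 4 genes that activate the helicase, only Mcm10 fell, from 117 and 105 to 76.9 and 72.9 scaled CPM (-0.57 ± 0.17, adjusted p = 0.0197). The GINS subunit gene Gins2 stood at 84.6 and 83.7 against 75.1 and 59.6 (-0.33 ± 0.18, adjusted p = 0.162). Cdc45 (-0.09) and Gins1 (0.05) had overlapping groups. With library totals Mcm10 changed by -0.10 and did not pass, and Gins1 was called higher (0.51).

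Among the licensing factors, the loaders fell and the origin binders did not pass. Cdt1, which brings the MCM ring to origins, stood at 301 and 296 against 184 and 168 scaled CPM (-0.77 ± 0.17, adjusted p = 0.0029). Cdc6, its partner ATPase, stood at 103 and 119.9 against 82.3 and 63.7 (-0.62 ± 0.19, adjusted p = 0.0178). Both had TREAT values below Vehicle values, and neither passed with library totals (-0.30 and -0.15). Orc6 stood at 88.7 and 97.4 against 113 and 89.7 (0.12), and Orc1 changed by 0.02, so the groups of both overlapped. With library totals both were called higher, Orc6 at 0.58 and Orc1 at 0.49.

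None of the 5 polymerase and primase genes passed with TMM scaling. At an unadjusted p under 0.05 they also numbered 0, and DESeq2 called none of them. With library totals Pola1 (0.48) and Prim1 (0.60) were called higher, and Prim1 was also with genes of at least 10 CPM (0.50). Pold1, the catalytic subunit of polymerase delta, stood at 57.7 and 50.1 against 41.0 and 44.1 scaled CPM (-0.34 ± 0.19, adjusted p = 0.158). Pola2, the regulatory subunit of polymerase alpha, stood at 75.2 and 69.5 against 68.3 and 59.6 (-0.18). Pole changed by -0.15, Pola1 by 0.01 and the primase gene Prim1 by 0.13. Their standard errors were 0.17 to 0.19.

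Of the 5 genes of the clamp and its loader, 2 fell and 1 rose. Rfc5 stood at 45.9 and 38.2 scaled CPM in Vehicle and 18.3 and 18.1 in TREAT (-1.21 ± 0.20, adjusted p = 0.000179), and Rfc3 at 91.3 and 68.1 against 37.8 and 40.7 (-1.02 ± 0.19, adjusted p = 0.000689). Rfc4, another subunit of the same loader, stood at 67.2 and 79.0 against 84.1 and 77.6 (0.14 ± 0.18, adjusted p = 0.538). Within areas there were 0.683 and 0.484 Rfc5 UMIs for each Rfc4 UMI in Vehicle and 0.217 and 0.234 in TREAT. The same ratio for Rfc3 was 1.36 and 0.862 against 0.449 and 0.525. Both ratios were lower in both TREAT areas, and no scaling between areas enters them. They do not tell less Rfc5 and Rfc3 from more Rfc4.

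Pclaf (chr9:65890323-65903551) was the only gene of the 37 that rose. It stood at 62.9 and 64.5 scaled CPM in Vehicle and 102 and 101 in TREAT, a change of 0.67 ± 0.17 (adjusted p = 0.00773, edgeR's quasi-likelihood test). Both TREAT values lay above both Vehicle values. The call was lost without Vehicle 1+4 (adjusted p = 0.113), without Vehicle 2+3 (adjusted p = 0.0533) and with reactive glia spots counted as tumour (adjusted p = 0.0646). Its adjusted p ranged from 0.00106 with library totals to 0.113 over the alternatives. Pcna stood at 1.51 and 2.08 against 3.27 and 2.42 (0.59 ± 0.36, adjusted p = 0.203), on 24 to 58 UMIs an area. The Okazaki fragment genes did not pass, with Fen1 at 119 and 107 against 87.9 and 91.5 (-0.33) and Lig1 at 61.7 and 67.9 against 77.1 and 70.0 (0.18). Lig1 was called higher with library totals (0.65) and with genes of at least 10 CPM (0.55), and Pcna (1.06) and Rfc4 (0.61) were called higher with library totals.

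Nucleotide supply was lower in 4 of its 5 genes. Tyms, which makes thymidylate (chr5:30038546-30073645), stood at 339 and 253 scaled CPM in Vehicle and 119 and 130.3 in TREAT (-1.25 ± 0.19, adjusted p = 7.67e-05). Rrm2, the subunit that limits ribonucleotide reductase in S phase, stood at 376 and 331 against 196 and 157 (-1.01 ± 0.18, adjusted p = 0.00047). Rrm1, its partner, stood at 217 and 161 against 185 and 157, with overlapping groups (-0.14 ± 0.19, adjusted p = 0.561). There were 1.73 and 2.06 Rrm2 UMIs for each Rrm1 UMI in Vehicle and 1.06 and 1.00 in TREAT. The thymidine kinase gene Tk1 stood at 159.8 and 121 against 78.1 and 80.8 (-0.82 ± 0.18, adjusted p = 0.00272). Dut, which removes dUTP, was at the edge of the threshold, at 386 and 349.6 against 282 and 241 (-0.49 ± 0.18, adjusted p = 0.0404), and with library totals it changed by -0.02.

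All 4 genes of chromatin assembly and histone supply fell. Slbp, which binds the end of histone mRNAs (chr5:33640055-33652574), stood at 535 and 467 scaled CPM in Vehicle and 199 and 211 in TREAT (-1.29 ± 0.18, adjusted p = 4.10e-05). Chaf1a, the large subunit of the histone chaperone CAF-1, stood at 171 and 142 against 59.4 and 76.1 (-1.20 ± 0.19, adjusted p = 0.000106). Its partner Chaf1b stood at 69.4 and 60.8 against 36.4 and 48.5 (-0.61 ± 0.19, adjusted p = 0.024). Uhrf1 stood at 214 and 181 against 126 and 134 (-0.61 ± 0.18, adjusted p = 0.0142). Each of the 4 genes had both TREAT values below both Vehicle values. With library totals Slbp (-0.82) and Chaf1a (-0.73) passed, while Chaf1b and Uhrf1 each changed by -0.13 and did not. The repair and fork genes did not pass, with Ung at 75.0 and 83.5 against 72.0 and 75.8 (-0.10) and Tipin at 144 and 174 against 191 and 172 (0.19). Tipin was called higher with library totals (0.65) and with genes of at least 10 CPM (0.55).

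The share of a gene in the summed tumour UMIs of the 37 genes is also free of scaling between areas. The share was lower in both TREAT areas than in both Vehicle areas for 10 genes, namely Mcm4, Mcm5, Cdt1, Rfc3, Rfc5, Rrm2, Tyms, Tk1, Chaf1a and Slbp. It was higher in both TREAT areas for 18 genes, among them Mcm6, Rfc4, Rrm1 and Pclaf, and overlapped for 9. These shares sum to a fixed total, so a lower share of some genes raises that of the rest, and no test was made. The summed level of the 24 mitosis genes in the tumour was 3508 and 3124 scaled CPM in Vehicle and 2755 and 2304 in TREAT, and that of the 37 genes was 5792 and 5479.7 against 4132 and 3753. Neither pair of groups overlapped on that scale, and both overlapped in plain CPM.

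**Figure D5:**
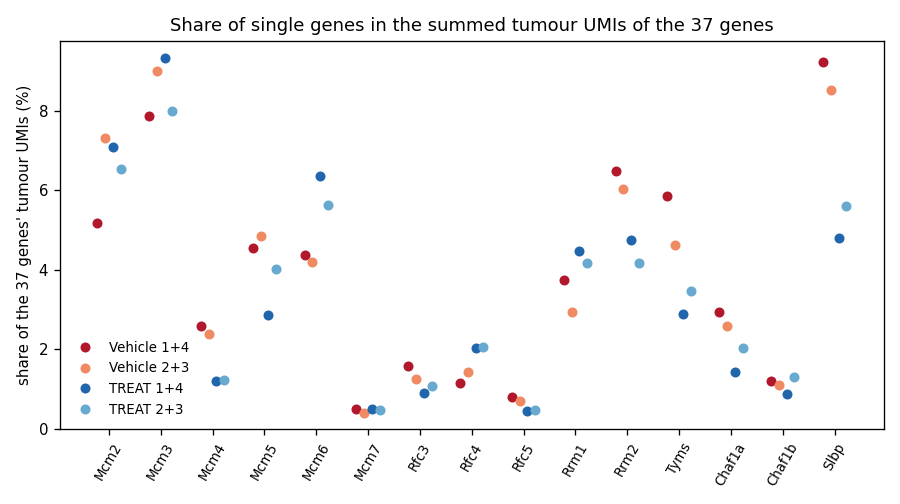
Share of each of 15 genes in the summed tumour UMIs of the 37 genes, in percent, with 1 point for each area. Mcm4, Slbp, Tyms, Rfc3, Rfc5, Rrm2 and Chaf1a lie lower in both TREAT areas, Mcm6, Rfc4 and Rrm1 lie higher, and Mcm2, Mcm3, Mcm7 and Chaf1b overlap.

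Of 44 further replication genes, 13 fell and 0 rose, with a median of -0.28. The 6 with the smallest p were Ticrr, an origin firing factor (-1.35 ± 0.21), Dscc1 of an alternative clamp loader (-1.11 ± 0.18), the deoxycytidine kinase gene Dck (-1.06 ± 0.18), the RNase H2 subunit gene Rnaseh2a (-0.99 ± 0.19), Timeless, the partner of Tipin (-0.81 ± 0.19), and the nucleotide pyrophosphatase gene Dctpp1 (-0.70 ± 0.18). Of 26 G1/S control genes, 9 fell and 2 rose, with a median of -0.39. Ccnd1, the D-type cyclin that starts the passage into S phase, stood at 2380.4 and 2112 scaled CPM in Vehicle and 762 and 747 in TREAT (-1.57 ± 0.20). The transcription factor gene Myc changed by -1.02 ± 0.19, Ccnd3 by -0.77 ± 0.17, Cdk4 by -0.73 ± 0.19 and Cks1b by -0.62 ± 0.18. E2f8, a repressive E2F factor, passed as higher on 2 and 2 UMIs in Vehicle and 6 and 14 in TREAT, too few to give a size. Of 24 mitosis genes, 7 fell and 0 rose, with a median of 0.00. Beside these counts, 20.2% of all genes tested fell and 12.1% rose.

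Markers of other cells differed over the same tumour spots, and none of the listed markers that follow was at 0 in all areas. Sums here are scaled CPM, as in the tests, unless plain CPM is named. Beside the counts of markers, 20.2% of all genes tested were lower and 12.1% higher. Of 24 tumour and lesion markers, 14 were lower in TREAT and 0 higher, with sums of 10721 and 10189.5 in Vehicle and 7783 and 5493 in TREAT. Of 6 endothelial markers 3 were lower, at 276 and 267 against 132 and 174. Of 12 T and NK cell markers 4 were lower, at 220.03 and 166 against 144 and 120.02, and of 10 macrophage markers 3 were lower, at 455 and 474 against 361 and 275. The TREAT sums of these lists lay below the Vehicle sums on that scale. In plain CPM only the endothelial sums did, at 228 and 234 against 153 and 207, and the other lists overlapped. Of 9 lesion interferon markers 1 was lower and 1 higher, at 4965 and 4999 against 4789 and 5023. Of 10 oligodendrocyte markers 1 was lower and 1 higher, at 352 and 379 against 339 and 424. Both lists had overlapping groups in scaled CPM. In plain CPM both were higher in TREAT, at 4093 and 4384 against 5560 and 5978 and at 290 and 333 against 394 and 505. Of 7 ependyma and choroid plexus markers tested 2 were higher, at 59.1 and 45.8 against 127 and 86.1. Tumour spots were also deeper in TREAT, at medians of 32622 and 36158.5 UMIs against 21210 and 22102.5. The part of these markers and of depth in the changes of the replication genes was not tested.

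Margin and interior gave like pictures for the leading genes. In the margin 9 of 37 genes fell and 1 rose, where 8.2% and 2.11% of 14091 genes did. Mcm4 changed by -1.33 ± 0.19 in the margin (adjusted p = 0.00432) and by -1.49 ± 0.18 in the interior (adjusted p = 3.53e-05) by edgeR's quasi-likelihood test. Slbp changed by -0.97 and -1.26 and Pclaf by 0.91 and 0.70 in margin and interior. The other genes that fell in the margin were Tyms, Mcm5, Rfc5, Chaf1a, Rrm2, Rfc3 and Cdt1. In the interior 14 fell and 1 rose, where 18.1% and 14.8% of 19198 genes did. The margin count was 2 without Vehicle 1+4 and 5 without Vehicle 2+3, and the interior count 7 and 9. Whether margin and interior differ in these changes was not tested.

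In the ring 0 of 36 genes tested passed, where 0.0151% of 13217 genes were lower, and in the brain 0 of 37 passed, where 0.0051% of 19595 genes were lower. At an unadjusted p under 0.05 the same edgeR test gave 7 lower and 2 higher genes in the ring. In the brain it gave 4 lower and 0 higher. The share of all genes at that threshold was not counted, so these counts have no background. DESeq2 called 3 lower in the ring and 0 in the brain, and the share of all genes it called is not given here. Without TREAT 2+3 the ring count was 4. In the ring Mcm4 stood at 84.4 and 86.8 against 39.4 and 47.7 scaled CPM (-0.96 ± 0.21) and Pclaf at 27.1 and 44.0 against 66.1 and 78.5 (1.00 ± 0.26), neither past the threshold. In the brain Mcm4 stood at 14.2 and 22.8 against 11.0 and 8.21 (-0.94 ± 0.28, adjusted p = 0.249). The areas held unlike parts of the brain, with 0 and 4 spots in the striatal cluster in Vehicle against 212 and 152 in TREAT. Reactive glia spots gave 2.43% and 23.2% of the brain UMIs of the 37 genes in Vehicle. In TREAT they gave 32.5% and 7.69%, and in TREAT 1+4 they include the patch of 169 spots described above. Median brain spots had 5384 and 4937 UMIs against 14412 and 10460. The part of brain content and depth in the brain changes was not tested. Both TREAT values lay below both Vehicle values for 8 of 37 genes in the brain, where 24.6% of all genes did, and for 13 of 36 in the ring, where 24.3% did.

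The change in the tumour was set against the change in the brain as an interaction with the capture area as a block. By edgeR's quasi-likelihood test 0 of the 37 genes differed, where 0.00498% of 20064 genes were lower and 0.00997% higher. At an unadjusted p under 0.05 there were 2 lower (Slbp and Chaf1a) and 1 higher (Pclaf), and DESeq2 called 0. The share of all genes at an unadjusted p was not counted. The smallest p belonged to Slbp, at -0.65 ± 0.20 (adjusted p = 0.166). A call in the tumour and none in the brain is therefore not shown to be a difference between them.

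Over whole tissue, where tumour spots made up more of the Vehicle areas, 13 of 37 genes fell and 0 rose, where 5.67% of 20265 genes fell and 1.11% rose. The median change was -1.19. Mcm4 stood at 93.7 and 98.3 scaled CPM in Vehicle and 15.5 and 26.6 in TREAT (-2.19 ± 0.29, adjusted p = 0.0288, edgeR's quasi-likelihood test). Pclaf, higher in the TREAT tumour, stood at 37.3 and 47.1 against 16.3 and 48.9 over whole tissue, with overlapping groups. The count was 0 without either Vehicle area, 5 without TREAT 1+4 and 36 without TREAT 2+3, and DESeq2 called 28.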

How the data were processed

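Probe pairs were hybridised to RNA in fixed sections, ligated and captured on an array of spots, per the labels' protocols. Raw UMI counts for each gene and spot, not normalized, were deposited with the spots' positions. Space Ranger 2.1.1, R 4.4.1, Seurat and mm10 are named per the submitters' processing notes, without their roles. The 37 genes and all gene and marker lists were chosen with earlier results of these data known.

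Tissue spots under 500 UMIs and 304 deprecated features were left out. Spots were clustered with scanpy 1.11.5 (2000 variable genes, 30 principal components, 15 neighbours, Leiden resolution 0.6) without 201 cell cycle, replication and histone genes. A cluster was named where at least 3 fixed markers of a list stood among its 50 leading genes. UMIs were summed by area and region and tested with edgeR 4.0.16 (quasi-likelihood, TMM, filterByExpr) in R 4.3.3, on the samples of both groups. Region contrasts used log2(CPM + 0.5) for each area and have no test. DESeq2 1.42.0, other scalings, filters, cluster settings and the omission of each area were alternatives. The tests were tried on simulated data.

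Values in every area are given for up to 12 genes with the smallest p in the tumour comparison, for the 2 with the smallest p in each role, and for further genes that a contrast turns on. Up to 6 genes each of the other replication and G1/S lists are named by smallest p. Promoter stretches are shown for up to 6 genes with a match, 1 for each role. Spots do not hold single cells, no doublet caller was used, and the areas' number limits the precision.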

Additional observations from a re-analysis of the deposited data

Results flagged for a closer look

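Spots that the position tables mark as off tissue, which no comparison between groups used, held UMIs of the 37 genes at 2248 CPM in Vehicle 1+4, 2501 CPM in Vehicle 2+3, 1003 CPM in TREAT 1+4 and 1464 CPM in TREAT 2+3. These values exceeded the level in brain spots on tissue, at 408, 611, 513 and 433 CPM, in all 4 areas.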

How the results depend on the processing

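The count of replication genes lower in TREAT was 15 in the tumour (9 to 15 with 1 area left out), 8 with library totals and 8 with genes of at least 10 CPM. The count higher was 1 (0 to 1), 11 with library totals, 4 with genes of at least 10 CPM and 0 with reactive glia clusters as tumour. The margin count was 9 (2 to 10, with 5 without Vehicle 2+3), and 4 with library totals. The interior count was 14 (7 to 15), 8 with library totals and 7 with genes of at least 10 CPM. The ring count was 0 (0 to 4), 3 with DESeq2 and 8 with reactive glia clusters as tumour. The brain count was 0 (0 to 0). The whole-tissue count was 13 (0 to 36, with 5 without TREAT 1+4), 28 with DESeq2, 8 with library totals and 0 with genes of at least 10 CPM. The count of genes with unlike change in tumour and brain was 0 (0 to 2). Mcm6 changed sign in the tumour with library totals, to 0.44. The cause of these shifts was not tested, and the share of all genes called is not given here for the alternatives. The 10 CPM filter and median-of-ratios scaling were chosen after seeing the data. With the label numbers as a replicate block the count was 15 in the tumour, 13 in the interior, 9 in the margin, 1 in the ring and 35 over whole tissue. The labels do not say what the numbers mark. Across genes, the difference of area 1+4 minus area 2+3 in Vehicle was correlated with the same difference in TREAT. That correlation was 0.07 in the tumour, 0.34 over whole tissue and -0.27 in the brain, and 2 pairs do not settle a pairing. With the numbers crossed, added after seeing the data, the brain count was 3. Depth limits the ring, where Pcna could not be tested, and Pcna in the tumour, with 24 to 58 UMIs an area.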
